A study of Mus musculus with 10 samples.

Results

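The glutathione transferases described here were 10 genes, *Gsta2*, *Gsta3*, *Gsta4*, *Gstm1*, *Gstm5*, *Gstp1*, *Gstt1*, *Gsto1*, *Mgst1* and *Mgst3*, among 18193 genes measured in the cerebral cortex of mice with and without *Crtc1*. Every probe set whose annotation named one of these genes alone was taken, which gave 17 probe sets of 45037. *Gsta2* was chosen on its measured rise in these same arrays, so its difference between the genotypes is a description and was given no test. The other 9 genes, called relatives below, were members of the family to set beside it, and their 16 probe sets were tested. Most of these probe sets were brighter than *Gsta2*, but 3 were dimmer by the mean over all mice.

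Glutathione transferases are enzymes that join the tripeptide glutathione to reactive or foreign molecules, which makes these more soluble and easier to export. The cytosolic enzymes fall into classes named after Greek letters, among them alpha, mu, pi, theta and omega, and a separate family of microsomal enzymes sits in membranes. In brain, mu-class enzymes are known mainly from astrocytes and the pi-class enzyme from oligodendrocytes, and several alpha- and mu-class genes are classical targets of NRF2, a transcription factor that answers oxidative stress.

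RNA came from the cortex of 5 wild-type (WT) mice and 5 *Crtc1*-/- mice, which the labels call Crtc1KO. All were untreated adult females of strain C57BL/6N aged 2 months, the WT mice being littermates of the knockouts, and each mouse gave 1 array. CRTC1 is a coactivator of CREB, the transcription factor that binds cAMP response elements, and the comparison asks which transcripts differ in cortex when it is lacking. The sources used here name no promoter, Cre driver or cell type to which the loss of *Crtc1* was limited. Values are log2 array values, in which a step of 1 is a doubling of signal, and they rank 1 probe set between mice but cannot be read as relative transcript amounts of different genes.

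The *Crtc1* probe set separated the genotypes, with log2 values of 9.51 to 9.86 in WT mice and 5.96 to 6.60 in *Crtc1*-/- mice. Any pair of arrays correlated at r = 0.994 or higher across probe sets, and array medians lay between 5.29 and 5.32. At an adjusted p of 0.05 in limma's moderated test, 136 probe sets (0.302%) differed between the genotypes. With 1 probe set per gene, the brightest, 56 genes were higher and 83 lower in *Crtc1*-/- cortex. No detection calls were given with these values, so the floor had to be read from genes that female mice lack: 13 probe sets for 6 Y-linked genes had means of 2.65 to 5.81 with a median of 2.88.

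The 10 genes spanned nearly the whole range of the array. *Gstp1* was the brightest, above 99.1% of all probe sets, and *Gstm5*, *Mgst3*, *Gstm1* and *Gsta4* followed it on the log2 scale. Each of these 5 genes was brighter than 90.7% of probe sets by its best probe set. *Gsta2* stood at the other end: its mean over all mice was above only 31.2% of probe sets, between the brighter *Gsta3* probe set and the dimmer *Mgst3* one. That mean includes the knockout values on which *Gsta2* was chosen. In WT mice its mean of 3.58 lay below both of these probe sets (4.09 and 3.88). In knockouts its mean of 4.38 lay above both (3.96 and 3.96). By the mean over all mice, 13 of the 16 probe sets of relatives were brighter than *Gsta2* and 3 were dimmer.

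**Figure D1:**
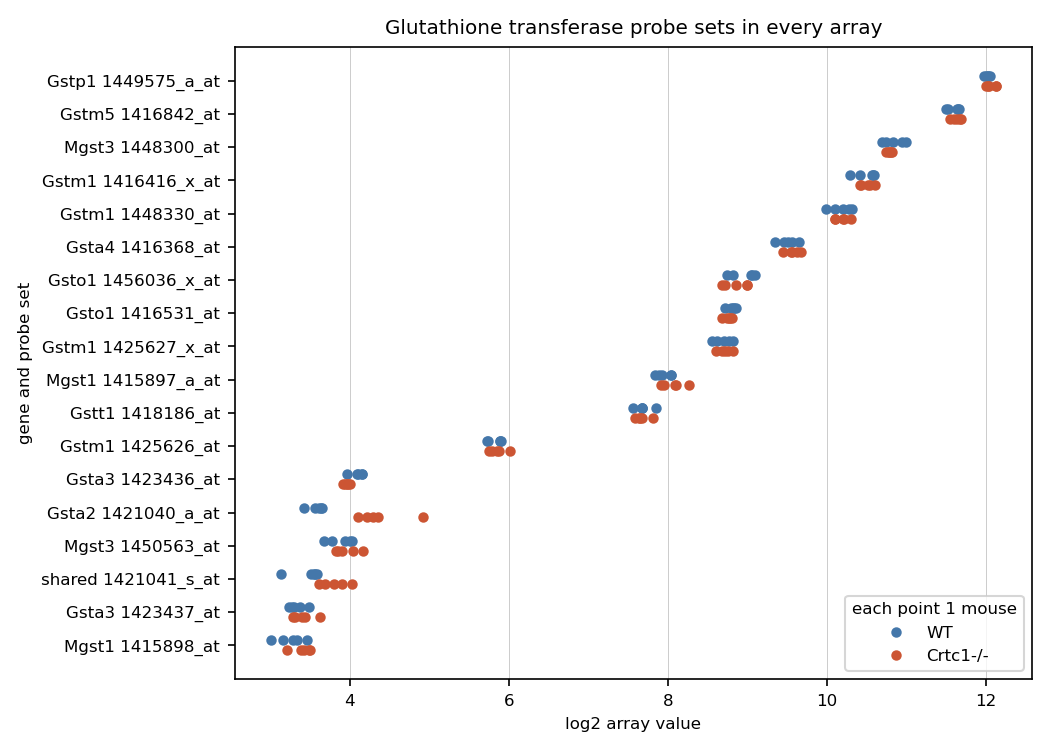
Log2 array value (x axis) of each probe set (y axis, in order of mean value) in 5 WT mice (blue points) and 5 *Crtc1*-/- mice (orange points), with each point 1 mouse and "shared" marking the probe set that names *Gsta2* together with other genes. The ranges of the genotypes overlap for the relatives, from a mean of 3.32 to one of 12.04. For *Gsta2* the genotypes stand apart. For the shared probe set they only just do not overlap, with nearest values of 3.58 and 3.61.

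*Gsta2*, an alpha-class gene best known as a liver transcript that oxidants and drugs induce, had log2 values of 3.65, 3.42, 3.57, 3.63 and 3.61 in WT mice 1 to 5. The same probe set (1421040_a_at) read 4.92, 4.10, 4.21, 4.35 and 4.30 in *Crtc1*-/- mice 1 to 5. All 5 knockouts lay above all 5 WT mice, with 0.45 log2 units between the nearest mice of the genotypes. Of all probe sets 2.08% separated the genotypes, and nothing is read from this for *Gsta2*. The group means were 3.58 ± 0.09 in WT and 4.38 ± 0.32 in *Crtc1*-/- mice (SD, n = 5 each), a log2 difference of 0.80 or a 1.74-fold higher signal. These are the values on which the gene was chosen.

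The spread in the knockouts came largely from mouse 1. Its value of 4.92 lay furthest from the rest, the SD of the knockouts was 3.45 times that of the WT mice, and without it the difference was 0.66, a 1.58-fold higher signal. The level itself was low on the scale of the array in both genotypes, but it lay above most Y-linked probe sets. By their means over all mice, 11 of the 13 were dimmer than *Gsta2* in WT mice, and the same number were dimmer than it in knockouts. The brightest of those 11 had a mean of 3.56, close to the 3.58 of *Gsta2* in WT mice. Whether every WT value is transcript or partly background signal was not tested.

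A second probe set, 1421041_s_at, names *Gsta2* together with *Gsta1* and *Gm3776*, close relatives on the same chromosome, so its signal cannot be assigned to one of them. It read 3.56, 3.58, 3.14, 3.54 and 3.51 in WT mice and 4.02, 3.80, 3.69, 3.61 and 3.90 in *Crtc1*-/- mice. Again no knockout fell below any WT mouse, but the nearest values were 3.58 and 3.61. The means were 3.47 ± 0.19 and 3.81 ± 0.17 (SD, n = 5 each), a log2 difference of 0.34, smaller than that of the probe set naming *Gsta2* alone. This probe set measures the same contrast and was likewise given no test. The probes of the set naming *Gsta2* alone were not checked for binding *Gsta1* or *Gm3776* transcripts. Whether its signal comes from *Gsta2* transcript only was therefore not tested.

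**Figure D2:**
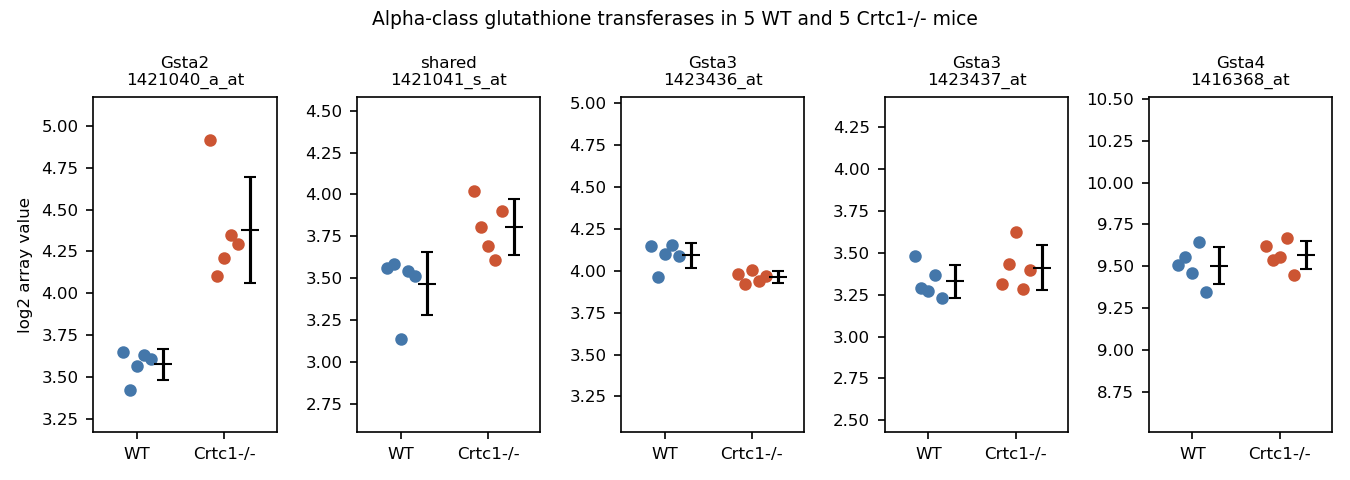
Log2 array values (y axis, each panel spanning the same width around its own centre) of the alpha-class probe sets in WT (blue) and *Crtc1*-/- (orange) mice, each point 1 mouse and each bar the mean ± SD of 5. The *Gsta2* panel shows the knockouts between 4.10 and 4.92 above WT mice at 3.42 to 3.65, and the *Gsta3* and *Gsta4* panels show overlapping genotypes.

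*Gsta4*, whose enzyme clears hydroxynonenal and other products of lipid peroxidation, had the brightest probe set of the alpha-class members. Its probe set read 9.51, 9.56, 9.46, 9.64 and 9.35 in WT mice and 9.62, 9.54, 9.56, 9.67 and 9.45 in *Crtc1*-/- mice. The genotypes overlapped almost completely. The log2 difference was 0.06 with a 95% confidence interval of -0.07 to 0.20, and limma's adjusted p over all probe sets was 0.911.

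*Gsta3*, an alpha-class enzyme known in mice for detoxifying aflatoxin, was as dim as *Gsta2*. Probe set 1423436_at read 4.15, 3.97, 4.10, 4.15 and 4.09 in WT mice and 3.98, 3.92, 4.01, 3.94 and 3.97 in *Crtc1*-/- mice. Most knockouts lay lower, with some overlap: WT mouse 2 lay among the knockouts. Its log2 difference of -0.13 (interval -0.23 to -0.02, adjusted p = 0.561 in limma) pointed opposite to *Gsta2*. The second *Gsta3* probe set, 1423437_at, was dimmer still and pointed the other way, with a difference of 0.08 and an adjusted p of 0.897 in limma, so the probe sets of this gene disagreed in direction.

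The alpha genes are partly neighbours. *Gsta4* lies 6 protein-coding genes from *Gsta2* on chromosome 9, with *Gsta1* and *Gm3776* between them, whereas *Gsta3* is on chromosome 1. Among the 10 measured genes on each side of *Gsta2*, 20 in all, none passed an adjusted p of 0.05 in limma (0.764% of all genes did), none an unadjusted p of 0.05 (9.86% did) and none separated the genotypes (3.14% did), and with 20 genes little can be read from these counts. Their log2 differences ran from -0.11 to 0.10 with a median of 0.01, and they included *Gclc*, the catalytic subunit that limits glutathione synthesis, at 0.10. No member lies on the chromosome of *Crtc1*.

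Because CREB and NRF2 act through short DNA elements, the upstream sequences of *Gsta2* and of 2 relatives that did hold such elements are shown, each as 250 bases before the annotated start from RefSeq (GRCm38.p6), 5′ to 3′ on the strand of the gene. Capitals mark the letters TGACNNNGC, the core of the antioxidant response element through which NRF2 acts, and in *Gstm5* also TGACTCA, an AP-1 site. *Gsta2* lies at chr9:78347146-78347395 on the minus strand, *Gsta3* at chr1:21240335-21240584 on the plus strand and *Gstm5* at chr3:107895604-107895853 on the plus strand.
Gsta2: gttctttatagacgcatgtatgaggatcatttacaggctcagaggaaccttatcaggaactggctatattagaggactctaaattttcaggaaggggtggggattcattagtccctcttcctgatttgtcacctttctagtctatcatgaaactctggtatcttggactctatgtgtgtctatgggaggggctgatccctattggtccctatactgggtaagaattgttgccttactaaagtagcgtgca
Gsta3: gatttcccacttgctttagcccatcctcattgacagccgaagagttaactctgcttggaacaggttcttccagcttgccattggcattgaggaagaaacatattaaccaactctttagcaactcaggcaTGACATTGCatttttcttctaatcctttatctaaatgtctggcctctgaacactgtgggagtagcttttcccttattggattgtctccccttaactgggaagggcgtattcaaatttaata
Gstm5: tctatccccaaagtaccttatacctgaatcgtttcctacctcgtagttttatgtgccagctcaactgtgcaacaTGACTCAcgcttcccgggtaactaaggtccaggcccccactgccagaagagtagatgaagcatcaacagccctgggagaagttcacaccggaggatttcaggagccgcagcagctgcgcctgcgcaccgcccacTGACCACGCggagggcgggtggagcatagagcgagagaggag

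The *Gsta2* window held none of the motifs searched, which says only that these letters are absent from it. The search covered 11 windows of 9 member genes, reaching 50 bases past the start, among 32851 windows of all genes, on both strands for every motif but the TATA box. The full cAMP response element TGACGTCA was in 1.79% of all windows and in no member's. Its short form TGACG, which lies within the full one, was in 20.8% of windows and in those of *Gstm5* and *Gsto1*. TGACNNNGC was in 12.4% of windows and in those of *Gsta3*, *Gstm5* and *Mgst1*, with its first base at position -121 from the start in *Gsta3*. TGACTCA, which can overlap TGACNNNGC, was in 5.20% of windows and in those of *Gstm5* and *Gstp1*. TATAAA was in 8.32% of windows on the strand of the gene, and in those of *Gstm1* and *Gstm5*. A match of letters is a description and not a site shown to be bound.

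The mu-class members *Gstm1* and *Gstm5* were among the brightest of the 10 genes by their best probe set, and their genotypes overlapped. *Gstm1*, a broad-range conjugating enzyme, had 4 probe sets. The brightest, 1416416_x_at, whose name marks probes that can also bind related transcripts, read 10.59, 10.58, 10.56, 10.29 and 10.42 in WT mice and 10.51, 10.41, 10.43, 10.61 and 10.54 in *Crtc1*-/- mice. WT mouse 4 was the lowest of all 10 mice, and the other 4 WT mice and the 5 knockouts overlapped. The log2 difference was 0.01 (interval -0.13 to 0.16, adjusted p = 0.986 in limma). The other *Gstm1* probe sets had means of 10.18, 8.70 and 5.84, and their differences were 0.01, 0.02 and 0.02.

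*Gstm5*, a mu-class enzyme known from brain and testis, read 11.66, 11.64, 11.64, 11.49 and 11.53 in WT mice and 11.67, 11.55, 11.59, 11.69 and 11.63 in *Crtc1*-/- mice. WT mice 4 and 5 were the lowest of all. The means of 11.59 ± 0.08 and 11.63 ± 0.06 (SD, n = 5 each) differed by 0.03 with an interval of -0.08 to 0.14 and an adjusted p of 0.953 in limma.

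*Gstp1*, the pi-class enzyme used as a marker of mature oligodendrocytes, had the smallest standard error of the relatives, 0.04 log2 units. It read 12.02, 11.99, 11.98, 12.05 and 12.02 in WT mice and 12.04, 12.02, 12.12, 12.12 and 11.99 in *Crtc1*-/- mice. Knockouts 3 and 4 lay above every WT mouse and the others lay among them. The difference of 0.05 had an interval of -0.05 to 0.14 and an adjusted p of 0.910 in limma. Mice carry a near-identical gene, *Gstp2*, and the probes were not checked for binding its transcript.

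*Gstt1*, the theta-class enzyme that acts on small halogenated compounds, ranged from 7.56 to 7.84 in WT mice and from 7.59 to 7.81 in *Crtc1*-/- mice. The knockouts fell wholly within the range of the WT mice. The difference was -0.01 (interval -0.14 to 0.12, adjusted p = 0.988 in limma).

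*Gsto1*, an omega-class enzyme with a cysteine in its active site that reduces dehydroascorbate, had probe sets at nearly the same log2 value. The first, 1456036_x_at, read 8.74, 9.06, 8.81, 9.10 and 9.04 in WT mice and 8.68, 8.72, 8.99, 8.99 and 8.86 in *Crtc1*-/- mice. It was the most scattered of the bright probe sets, with values split across both genotypes, and its difference of -0.10 had an interval of -0.30 to 0.09 and an adjusted p of 0.897 in limma. The second, 1416531_at, was tighter, at 8.72 to 8.85 in WT and 8.68 to 8.80 in *Crtc1*-/- mice, with a difference of -0.04 and an adjusted p of 0.917 in limma.

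The microsomal enzymes also overlapped between the genotypes. *Mgst1*, a membrane enzyme that conjugates and also reduces lipid peroxides, read 7.84, 8.04, 8.04, 7.93 and 7.88 in WT mice and 8.11, 7.95, 7.91, 8.27 and 8.09 in *Crtc1*-/- mice. Knockouts 1, 4 and 5 lay above every WT mouse and knockouts 2 and 3 within their range. The difference of 0.12 (interval -0.04 to 0.28, adjusted p = 0.815 in limma) was exceeded among the relatives by only 2 probe sets in size, the dim *Mgst1* probe set at 0.15 and *Gsta3* at -0.13.

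*Mgst3*, which can conjugate glutathione to a leukotriene precursor, read 10.75, 10.83, 10.69, 10.99 and 10.94 in WT mice and 10.78, 10.81, 10.82, 10.78 and 10.74 in *Crtc1*-/- mice. WT mice 4 and 5 were the highest here, the reverse of their place for *Gstm5*. The difference was -0.06 (interval -0.19 to 0.08, adjusted p = 0.923 in limma), and a second, dim probe set had a difference of 0.08.

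Across the relatives, 11 probe sets had a difference above 0 and 5 below, from -0.13 to 0.15 with a median of 0.02. None of the 16 passed an adjusted p of 0.05, against 0.302% of all probe sets, and the smallest adjusted p was 0.561. One, the brighter *Gsta3* probe set, had an unadjusted p under 0.05 in limma, where 7.19% of all probe sets did. None separated the genotypes, where 2.08% of all probe sets did, a share that *Gsta2* belongs to by the way it was chosen. The median standard error was 0.06 and the 95% intervals of the 16 probe sets together ran from a fold of 0.815 to one of 1.26.

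**Figure D3:**
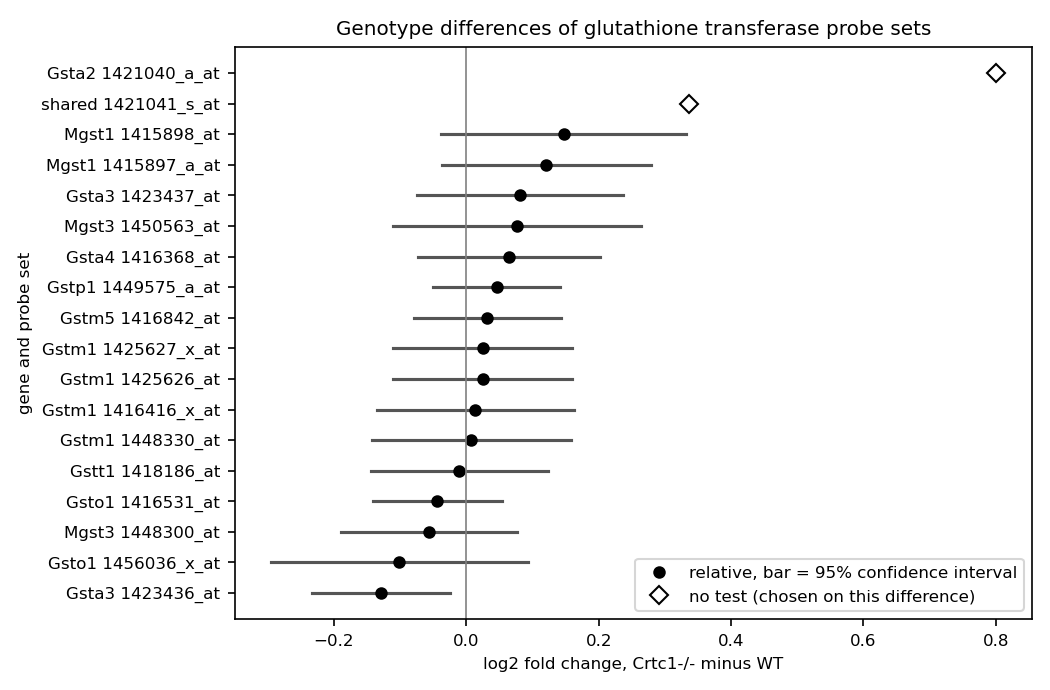
Difference of the mean log2 values, knockout minus WT (x axis), of each probe set (y axis), with filled points and bars for relatives (estimate and 95% confidence interval from limma, 5 mice per genotype) and open diamonds for probe sets given no test. Relatives lie between -0.13 and 0.15, the *Gsta2* diamond at 0.80 and the shared probe set at 0.34.

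Other genes of glutathione metabolism and its regulation were read from 5 lists, with 1 probe set per gene. The lists hold enzymes and also transporters, transcription factors, receptors and their targets. Of 102 genes listed 94 were measured, and none passed an adjusted p of 0.05, against 0.764% of all genes. Unadjusted p-values under 0.05 were found for 12 of them (12.8%), where 9.86% of all genes had one, and 4 separated the genotypes, where 3.14% of all genes did. The median log2 difference was 0.005 beside -0.003 for all genes.

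The list of other glutathione transferases also held related proteins that are not all established transferases. Its 20 measured genes had a median difference of 0.02, with 13 above 0 and 7 below. The smallest p-values belonged to members brighter than 42.4% to 46.0% of probe sets: *Gstm2* at 0.19 (adjusted p = 0.319 in limma), *Gstt3* at 0.19 (adjusted p = 0.363 in limma) and *Ptges*, a prostaglandin E synthase of the microsomal family, at 0.17 (adjusted p = 0.416 in limma). *Gstm2* read 4.67 ± 0.04 in WT and 4.86 ± 0.15 in *Crtc1*-/- mice (SD, n = 5 each), with overlapping genotypes.

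For glutathione synthesis, reduction and use, 23 of 26 genes were measured with a median of -0.01. The lowest p-values were those of *Gpx3*, a secreted glutathione peroxidase, at -0.23, of *Slc1a1*, the neuronal transporter that brings in cysteine, at -0.12, and of *Gpx4*, which reduces lipid peroxides, at -0.09, with adjusted p from 0.424 to 0.539 in limma. For breakdown and export, 18 of 19 genes had a median of 0.01, led by *Ggct* at -0.12, *Lap3* at 0.11 and *Dpep1* at 0.16, with adjusted p from 0.352 to 0.534 in limma.

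The NRF2 list, the regulators and targets of the factor that classically induces *Gsta2*, had 23 of 25 genes measured and a median of -0.002. *Taldo1*, a pentose phosphate enzyme, had the smallest p: it read 9.92 ± 0.03 in WT and 10.04 ± 0.01 in *Crtc1*-/- mice (SD, n = 5 each), did not overlap, and had a difference of 0.12 with an adjusted p of 0.179 in limma. *Srxn1*, which restores oxidized peroxiredoxins, also did not overlap and pointed down at -0.10 (adjusted p = 0.428 in limma). Over the 5 lists 4 genes did not overlap, where 3.14% of all genes did not: these 2, *Lap3* and 1 from the list of other glutathione transferases and related proteins. *Ephx1*, a microsomal epoxide hydrolase, was at 0.15. The 10 genes of xenobiotic receptors and their targets had a median of 0.04. *Aldh3a1*, an aldehyde dehydrogenase induced through the aryl hydrocarbon receptor, was at 0.35 (adjusted p = 0.319 in limma), with *Cyp1a1* at 0.14 and *Ahrr* at 0.10, all of them dim.

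**Figure D4:**
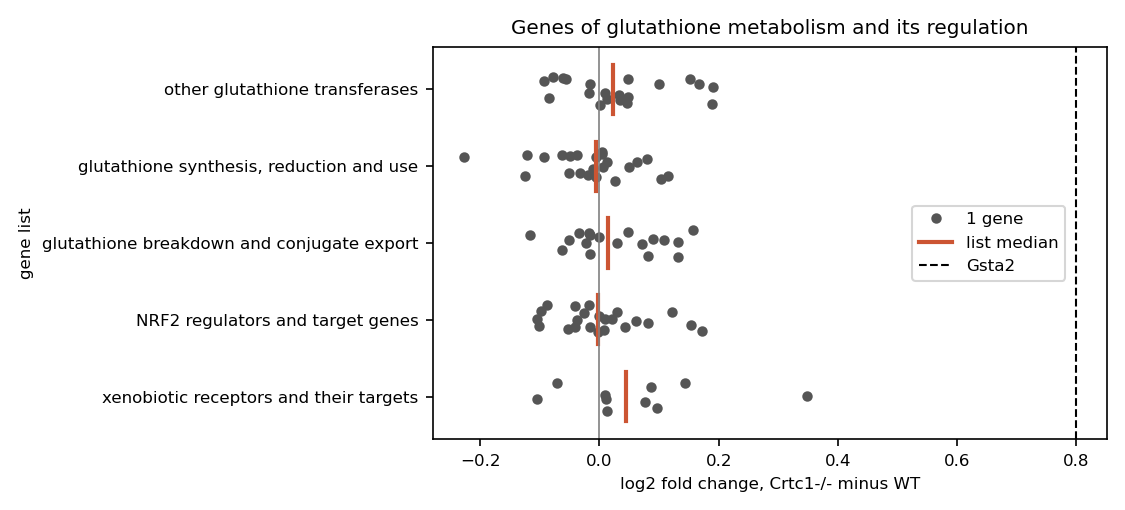
Difference of the mean log2 values, knockout minus WT (x axis), of each measured gene (points, spread vertically only for visibility) of 5 gene lists (y axis), with the *Gsta2* value as a dashed line at 0.80. All 94 genes lie between -0.23 and 0.35, to the left of that line.

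Glutathione transferases differ between glial cell types, so marker genes were read beside them. In whole cortex, a change in the number of cells of a type and a change in RNA per cell cannot be told apart. The mean of 11 oligodendrocyte markers was 9.97 to 10.30 in WT mice and 10.23 to 10.55 in *Crtc1*-/- mice, a difference of 0.20 (exact permutation p = 0.0476, 0.185 adjusted over 10 marker lists), with all 11 genes above 0 and none passing the test alone. The astrocyte mean was 10.01 to 10.19 in WT mice and 10.15 to 10.24 in *Crtc1*-/- mice, a difference of 0.07 (exact permutation p = 0.183, 0.384 adjusted). Markers of hippocampus had means of 6.49 ± 0.08 and 6.33 ± 0.06 (SD, n = 5 each), a difference of -0.16 (exact permutation p = 0.00794, the smallest 5 against 5 mice can give, 0.0794 adjusted), with 7 of the 10 measured genes below 0 and 3 above. Of these 10 genes only *Fibcd1* and *Fam163b* passed the test, which fell by 0.41 and 0.28 on the log2 scale with adjusted p of 0.009 and 0.019 in limma, and the highest difference in the list was 0.13. The 7 lists not yet named gave exact permutation p from 0.0556 for neurons to 0.968 for microglia.

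Beside these values, the *Gsta2* difference was 0.80 with the oligodendrocyte mean in the fit, 0.78 with the astrocyte mean and 0.50 with the hippocampal mean. The hippocampal mean was lower and *Gsta2* higher in the same 5 mice. This mean did not overlap between the genotypes, at 6.42 or above in WT mice and 6.40 or below in knockouts. Its part and that of genotype therefore cannot be told apart, and differences with it in the fit are descriptions only. No relative passed an adjusted p of 0.05 with any of the 3 means in the fit. How many of all probe sets passed in these fits was not counted, so little can be read from this. With the hippocampal mean, the dim probe sets of *Mgst1* and *Mgst3* had differences of 0.37 and 0.23, against 0.15 and 0.08 without it.

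Relations with the marker means were computed for the brightest probe set of each relative. Over the 10 mice, 18 relations were computed between 9 relatives and the astrocyte and oligodendrocyte means. *Gstm5* gave Pearson's r = 0.863 with the astrocyte mean (permutation p = 0.0012, 0.0216 adjusted) and Spearman's rho = 0.855 (0.0463 adjusted). *Gstm1* gave r = 0.791 (permutation p = 0.00586, 0.0384 adjusted) and rho = 0.6 (0.244 adjusted), and *Mgst3* gave r = -0.838 (permutation p = 0.0064, 0.0384 adjusted) and rho = -0.624 (0.244 adjusted). WT mice 4 and 5 were the lowest in astrocyte markers. Leaving them out narrows the range of the marker mean and leaves 8 mice, so how far the relations rest on them cannot be told. Without WT mice 4 and 5 r was 0.522 for *Gstm5*, 0.400 for *Gstm1* and -0.112 for *Mgst3*, with exact permutation p of 0.184, 0.325 and 0.789. Within genotypes r was 0.877, 0.874 and -0.827, and none of these passed after adjustment. When the probe sets of each gene were averaged instead, none of the 18 relations passed. *Gstp1* against the oligodendrocyte mean gave r = 0.659 (permutation p = 0.0364, 0.164 adjusted) and rho = 0.588 (0.244 adjusted).

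**Figure D5:**
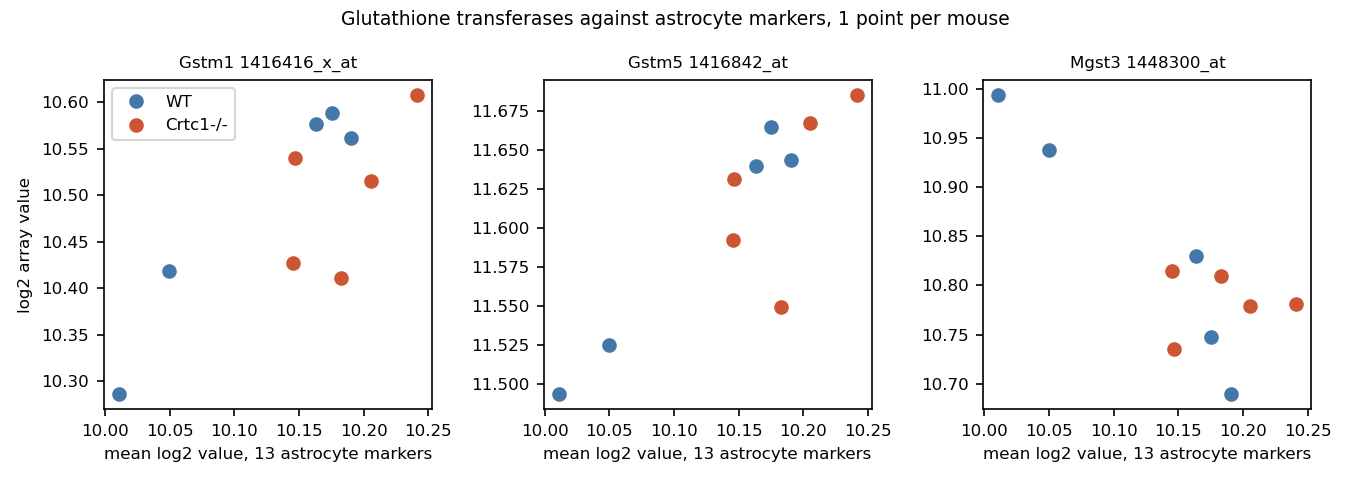
Log2 array value (y axis) of *Gstm1*, *Gstm5* and *Mgst3* (panels) against the mean log2 value of 13 astrocyte markers (x axis), each point 1 mouse, WT blue and *Crtc1*-/- orange. WT mice 4 and 5, the points furthest left at 10.01 and 10.05, lie lowest for *Gstm5* and highest for *Mgst3*, and WT mouse 4 lies lowest for *Gstm1*.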

How the data were processed

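Biotinylated cRNA from the cortex of 5 WT and 5 *Crtc1*-/- mice was hybridized to Affymetrix 3′ expression arrays. The authors excluded arrays of poor quality and deposited a single log2 value for every probe set of each array, a scale read from the values. The background correction, normalization and summarization that made the deposited log2 values are not given in the sources used here, and arrays give no read depth, so the number of mice limits the precision. Groups and mouse numbers came from the sample titles, which give no batch. Of 45101 probe sets, 64 array controls were left out. Gene names came from the platform annotation, in which 34945 probe sets name 1 gene, 932 several and 9160 none.

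Genotypes were compared with limma 3.58.1 in R 4.3.3 (lmFit and eBayes, two-sided), adjusted by Benjamini-Hochberg over all probe sets, or over 18193 genes by their brightest probe set for the gene lists. The fit was first tested on simulated data. Marker means were compared by exact permutation and relations by 100000 permutations (two-sided, Python 3.11.15, numpy 2.4.6, scipy 1.17.1). Members and lists were chosen with earlier results of these data known. Named genes are all members, the genes of each pathway list that passed plus the 3 of smallest p among the rest, the *Crtc1* probe set and those markers that passed. *Gclc* was named after its value was seen. Alternatives covered normalization, a filter on dim probe sets (mean under the 40th percentile), probe sets named as cross-hybridizing, the variance prior, array weights, marker covariates, a replicate block and leaving out each mouse.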

Additional observations from a re-analysis of the deposited data

Results flagged for a closer look

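In the shared probe set 1421041_s_at, which names *Gsta2* with *Gsta1* and *Gm3776*, WT mouse 3 read 3.14 while the next WT value was 3.51, a gap that took 0.847 of the range of the 5 WT mice. It was the 1 sample flagged as far from its group in 36 groups of 5 examined, and chance gives about 1 in 20 such groups. The gap of knockout 1 in *Gsta2* took 0.696 of the range of the 5 knockouts, which fell just short of being flagged.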

How the results depend on the processing

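The relatives gave 0 called probe sets under all 23 alternatives. The share of all probe sets called was not counted for most of these, so little can be read from that count. The *Gsta2* difference of 0.80 was 0.66 to 0.87 when each mouse was left out, 0.50 with the hippocampal marker mean as a covariate and 0.34 in the shared probe set, an alternative chosen after seeing the data. It could not be computed with dim probe sets removed. Over the pathway lists, 1 gene was called without moderation (*Taldo1*, adjusted p = 0.0118 in limma's fit without moderation) and 0 otherwise. In the fit without moderation 75 of all 18193 genes were called, and the number was not counted for most other alternatives. The mouse numbers did not pair the arrays: deviations of same-numbered mice correlated at -0.327 to 0.0872, and 1 of 5 mice correlated best with its own number. With the replicate block no relative was called.

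The oligodendrocyte marker difference of 0.203 did not pass after adjustment over the marker lists (0.185). Its unadjusted exact permutation p, 0.0476, rose above 0.05 with median centring (0.199, p = 0.0556), with the mean of all probe sets per gene (0.170, p = 0.0794) and with the replicate block (0.203, p = 0.125). Leaving out each mouse gave 0.152 to 0.239 with p from 0.0317 to 0.111, and p was above 0.05 without WT mouse 1 or 2 or knockout 1, 2, 3 or 4. The 3 relations that passed became 1 with quantile normalization and 0 with the mean of all probe sets.

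Small differences changed sign, none of them called. Quantile normalization put *Gstt1* at 0.0037. The hippocampal covariate put *Gstt1* at 0.0070 and the *Gsto1* probe sets at 0.119 and 0.0295. The astrocyte covariate put 3 *Gstm1* probe sets at -0.0842, -0.0888 and -0.0376, *Gstm5* at -0.0291, *Gstt1* at 0.0041 and *Mgst3* at 0.0230. Leaving out each mouse gave ranges of -0.036 to 0.039, -0.040 to 0.041, -0.0087 to 0.056 and -0.016 to 0.050 for the *Gstm1* probe sets and -0.045 to 0.030 for *Gstt1*. The causes were not tested. With 5 mice per genotype, changes as small as those of most relatives lie within their intervals.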
